A study of Mus musculus with 16 samples.

Results

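The naive pluripotency network described here is a list of 31 mouse genes that were chosen by name: the core factors Pou5f1, Sox2 and Nanog, 11 further transcription factors of naive ES cells, 7 zinc finger and chromatin-linked factors, 5 ES cell markers and RNA-binding proteins, and 5 regulators that many cell types express. All 31 were found among the 22375 genes of the deposited count tables, Tfcp2l1 under its older symbol Tcfcp2l1. All 31 also passed the filter on low counts and were among the 15758 genes tested. The lowest count of any member in any biological replicate was 11, for Prdm14.

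Mouse embryonic stem (ES) cells are pluripotent cells taken from the early embryo. The RNA came from ES cells of strain 129/OLA, either wild type (WT, the E14TG2a line) or lacking Cfp1 (Cfp1-/-), and either left untreated or given doxorubicin for 6 hours. All cells were grown on gelatin in serum with LIF, the cytokine that supports self-renewal. Each of the 4 groups has 2 biological replicates with 2 technical replicates each, 16 deposited samples in all, and technical replicates were summed, so n = 2 in every group. The dose of doxorubicin is 1 μM in the treatment protocol and 1 mM in the treatment label of the samples. Doxorubicin poisons topoisomerase II and breaks DNA, and Cfp1 (gene Cxxc1) is the CpG-binding subunit of the Set1 complex that methylates histone H3 at lysine 4. The Cfp1-/- cells are compared with WT cells as labelled, and any difference between the lines other than Cfp1 cannot be told apart from its loss.

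In naive ES cells the core factors bind together at the enhancers of pluripotency genes, their own included, and LIF keeps further factors such as Klf4, Tbx3 and Tfcp2l1 active. When ES cells leave the naive state, most of these genes are switched off while Pou5f1 and Sox2 persist for longer. DNA damage is known to activate p53 in ES cells, and p53 is known to lower the expression of several pluripotency genes, Nanog among them.

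Values per replicate are the authors' normalised read counts, the summed counts of a biological replicate divided by a size factor. Fold changes are on the log2 scale with their standard error (SE), from edgeR's quasi-likelihood test on the raw counts, and a gene is called when its Benjamini-Hochberg adjusted p-value over all 15758 genes is under 0.05. Depth lay between 14880589 and 29422711 counted reads per biological replicate. Cxxc1 had normalised read counts of 807 to 1199 in the 4 WT replicates and of 0.964 to 5.11 in the 4 Cfp1-/- replicates, and all 6 p53 targets examined rose with doxorubicin in both lines. In replicate 1 of treated Cfp1-/- cells the second technical replicate lacked counts for 209 of 291 well-counted genes of chromosome 19, for 225 of 280 on X and for 5 of 5 on Y. Of the members Nr0b1 alone lost all its counts, with 249 in the first run and 0 in the second. Over the other members the second run held between 46.8% (Dppa3) and 87.5% (Sall1) of the counts of the first.

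The ES cell label was checked against marker genes. Counted per kilobase of exon, the members had a median of 1177 normalised read counts in untreated WT cells, against 92.3 over the genes tested, and 1456 against 94.1 in untreated Cfp1-/- cells. Dppa5a, Trim28, Zfp42 and Pou5f1 stood highest per kilobase in untreated WT cells, at 11659, 8795, 7119 and 6773. Together the members took 1.11% and 0.898% of all counts in the untreated WT replicates and 0.574% and 0.469% in the treated ones. In Cfp1-/- cells the shares were 1.17% and 1.07% untreated and 0.653% and 0.503% treated. Fewer cells that express a gene and less of its RNA per cell cannot be told apart in such samples.

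Promoter windows of 300 bases, from 250 before a RefSeq start to 50 after it (GRCm38.p6), were matched by symbol for 19 of the 31 members, with 25 windows. They were searched on both strands for the octamer ATGCAAAT bound by Pou5f1, the Sox letters ACAATG, the Esrrb letters TNAAGGTCA and the Klf letters CCACACCC. The search took these exact letters alone, so a window without them may still hold a near match. The octamer stood in 1.74% of all 32851 windows and in that of 1 member, Zfp42. Just before its Sox letters the Nanog window reads ttttgcat, close to the octamer on the opposite strand (ATTTGCAT) and not counted. The Sox letters stood in 12.6% of all windows and in those of 4 members, Pou5f1, Nanog, Esrrb and Lin28a. The Klf letters stood in 3.56% of all windows and in that of Zfp42, and the Esrrb letters in 1.28% and in no member's. Zfp42 and Nanog, shown first, were picked from the members whose windows held motif letters, and these are in capitals. The windows of Nr0b1 and Nr5a2 held none of these letters. Under doxorubicin their log2 fold changes were -2.87 and -2.80 in WT cells, against -2.78 for Nanog. In Cfp1-/- cells they were -3.00 and -2.89, against -2.53. With standard errors of 0.36 to 0.45 these falls are alike, and a link between the letters and the response was not tested. In Zfp42 the octamer, on the opposite strand, begins 186 bases before the start and the Klf letters 75 before it, and in Nanog the Sox letters begin 67 before it.
Zfp42 (chr8:43306960-43307259, minus strand): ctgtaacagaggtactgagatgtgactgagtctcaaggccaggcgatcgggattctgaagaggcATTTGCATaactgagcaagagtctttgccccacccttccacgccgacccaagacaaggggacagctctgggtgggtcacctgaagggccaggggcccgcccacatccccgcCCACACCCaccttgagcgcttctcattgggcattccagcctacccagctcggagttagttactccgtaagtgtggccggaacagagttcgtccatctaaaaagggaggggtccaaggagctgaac
Nanog (chr6:122707239-122707538, plus strand): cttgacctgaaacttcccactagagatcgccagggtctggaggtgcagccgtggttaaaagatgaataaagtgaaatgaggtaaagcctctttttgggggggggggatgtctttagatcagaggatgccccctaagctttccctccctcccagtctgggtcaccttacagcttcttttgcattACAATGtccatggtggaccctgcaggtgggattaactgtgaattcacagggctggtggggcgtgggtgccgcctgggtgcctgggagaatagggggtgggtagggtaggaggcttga
Cfp1 binds CG dinucleotides that are not methylated, so their number is given as well. The members' windows held a median of 11 (range 2 to 40), against 7 over all windows. Klf2 and Nr5a2 are shown because they mark the range among the members that were higher in untreated Cfp1-/- cells, with 32 and 2 CG dinucleotides, which are in capitals.
Klf2 (chr8:72318812-72319111, plus strand): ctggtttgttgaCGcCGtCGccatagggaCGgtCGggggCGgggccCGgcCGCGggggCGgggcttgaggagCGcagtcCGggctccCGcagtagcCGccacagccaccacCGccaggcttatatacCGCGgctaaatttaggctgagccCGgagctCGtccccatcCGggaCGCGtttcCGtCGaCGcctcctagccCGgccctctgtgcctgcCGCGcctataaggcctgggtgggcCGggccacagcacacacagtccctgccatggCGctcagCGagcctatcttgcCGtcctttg
Nr5a2 (chr1:136960399-136960698, minus strand): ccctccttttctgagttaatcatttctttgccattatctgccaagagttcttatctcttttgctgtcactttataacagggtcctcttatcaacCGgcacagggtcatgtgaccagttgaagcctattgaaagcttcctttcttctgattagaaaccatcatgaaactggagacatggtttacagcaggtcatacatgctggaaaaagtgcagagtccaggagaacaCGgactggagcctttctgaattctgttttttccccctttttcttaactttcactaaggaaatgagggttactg

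Doxorubicin lowered most of the network in WT ES cells. Of the 31 members 24 were lower after 6 hours and 0 were higher, where 21.8% of the genes tested were called lower and 26.5% higher. The median log2 fold change of the members was -1.22, against 0.06 over all genes tested. When the limits of the study were added, which ask for a change of 2.5-fold or more and a mean count of 200 or more beside the adjusted p, 13 members were lower and 0 higher, against 2.80% and 5.10% of the genes. In 25 members both treated replicates lay below both untreated ones, as they did in 36.0% of the genes tested, and in the other 6 the groups overlapped. Of the 24 calls 18 held in all 8 fits that left out a replicate.

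The network also fell in Cfp1-/- ES cells. There 23 members were lower and 0 higher, against 21.0% and 27.8% of the genes tested, with a median log2 fold change of -1.17 for the members and 0.01 for all genes. At the study's limits 11 members were lower and 0 higher, against 2.23% and 5.38% of the genes. In 28 members both treated replicates lay below both untreated ones, as in 38.7% of the genes tested, and in the other 3 the groups overlapped. Of the 23 calls 16 held in all 8 fits that left out a replicate. The 2 responses use different samples, and their values are given side by side below for each class of members.

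**Figure D1:**
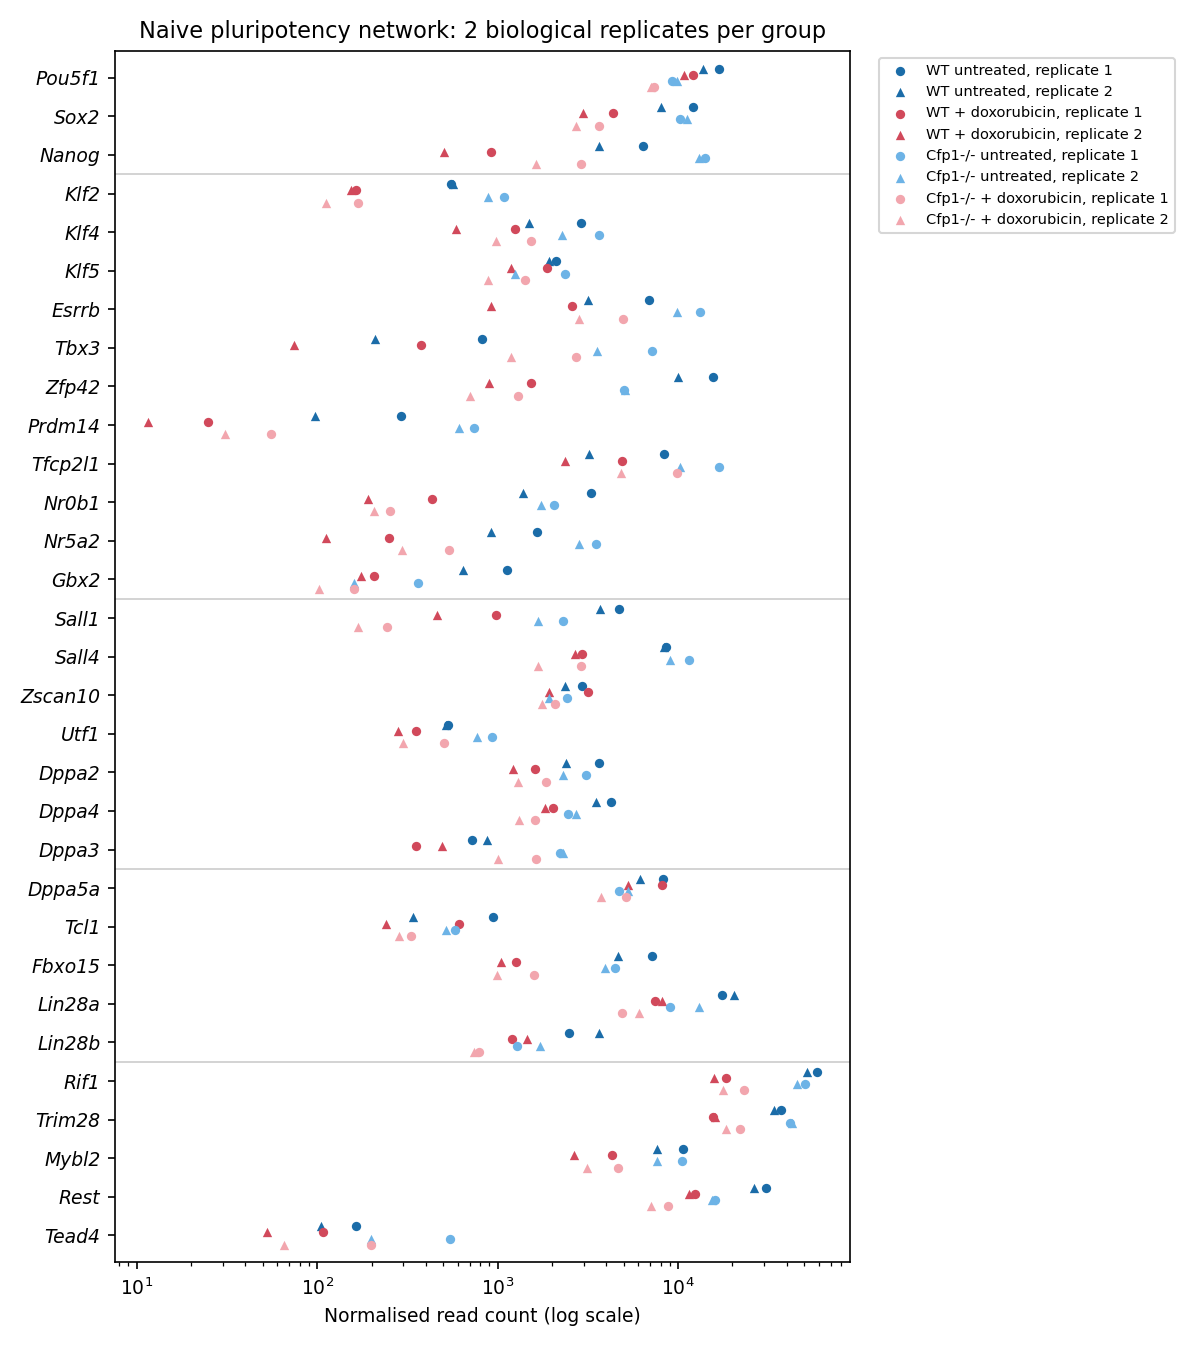
Normalised read counts of the 31 members (log scale) in the 2 biological replicates of each of the 4 groups, with circles for replicate 1, triangles for replicate 2 and lines between the classes of members. The red points of doxorubicin-treated cells lie to the left of the blue points of untreated cells for most members, furthest for Prdm14 and Zfp42 in WT and for Prdm14 and Sall1 in Cfp1-/- cells, while Zscan10 and Dppa5a overlap.

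**Figure D2:**
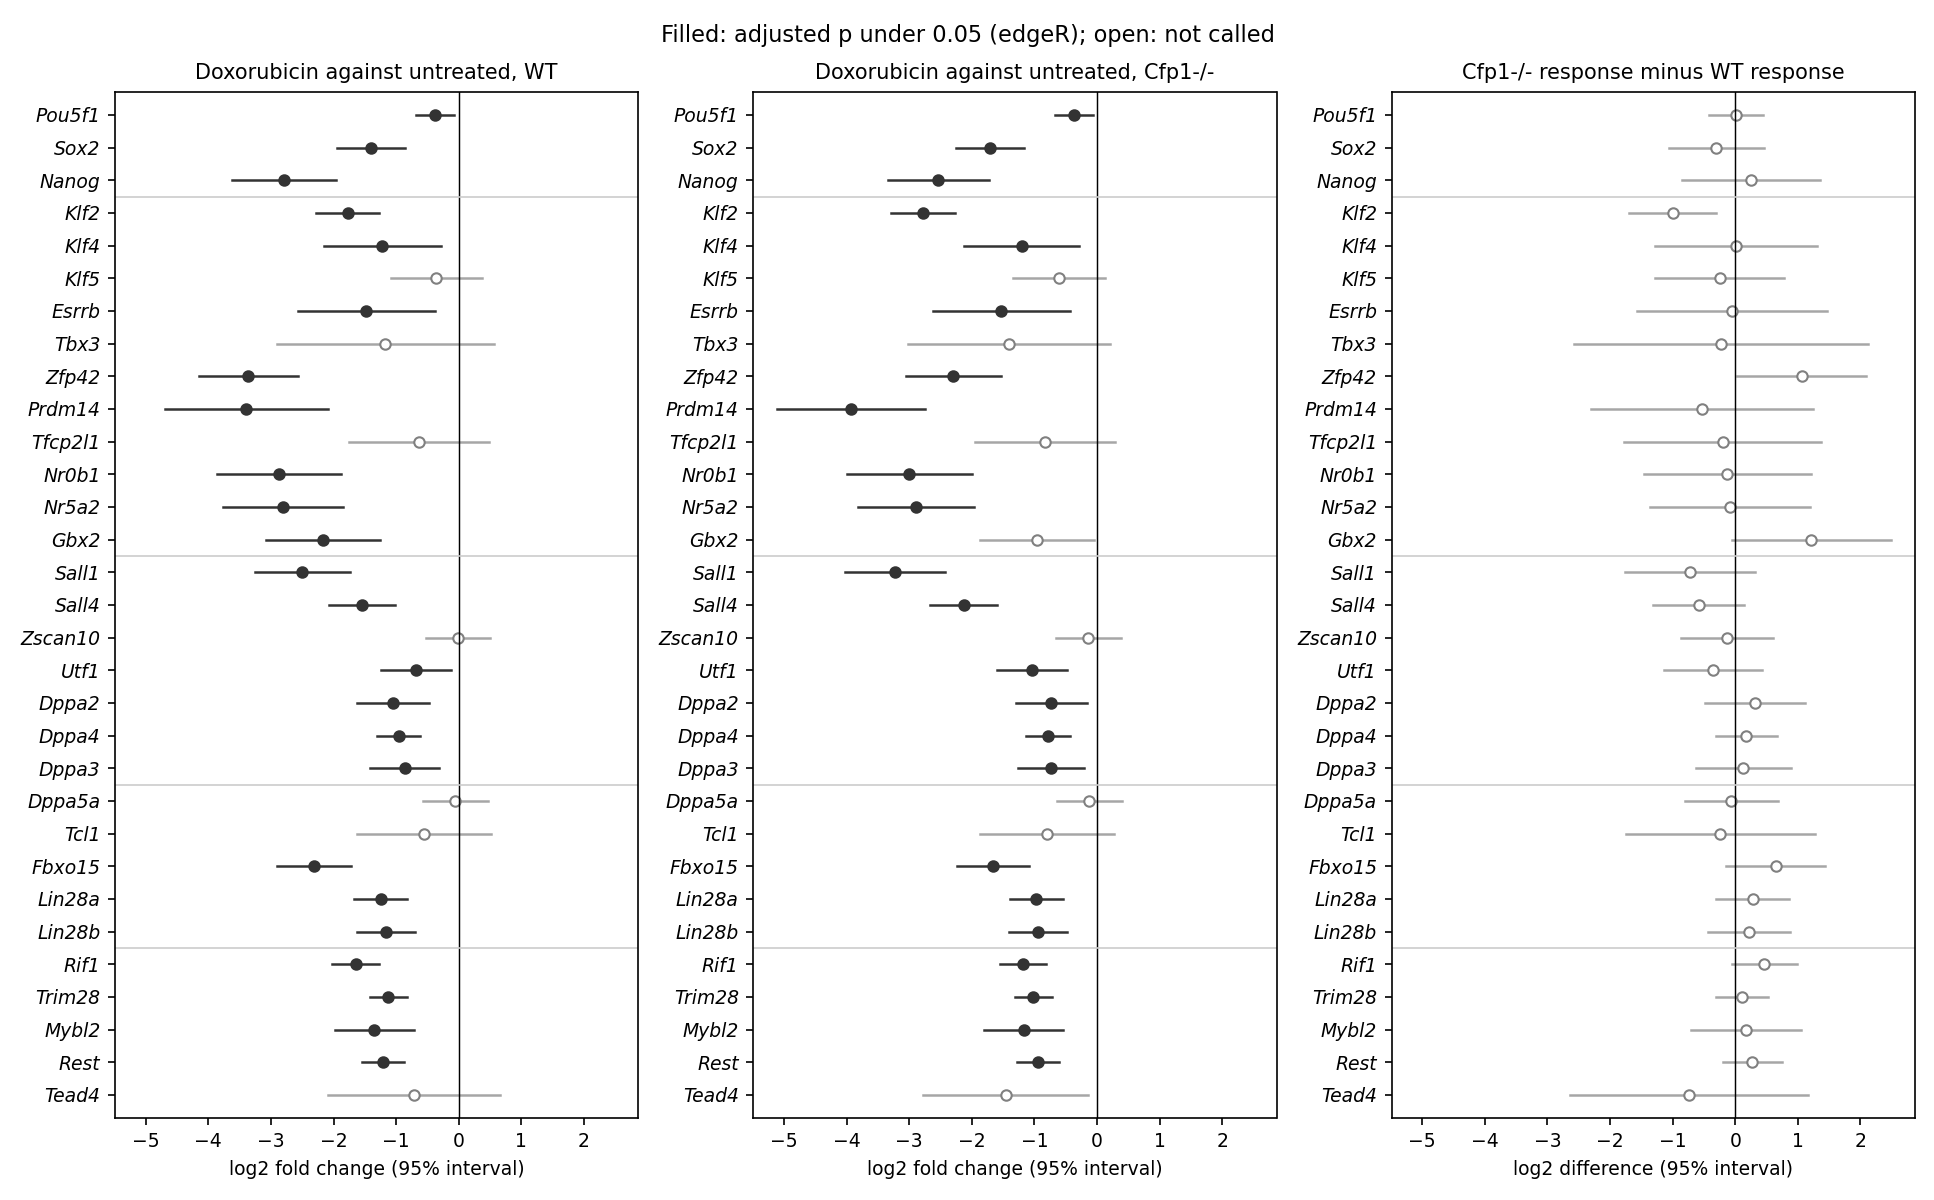
Log2 fold change of each member with doxorubicin in WT and in Cfp1-/- cells, and the difference between these responses, each with its 95% interval (edgeR) and filled where the adjusted p was under 0.05. Filled points number 24 in WT cells, 23 in Cfp1-/- cells and 0 in the difference, and every point of the first 2 panels lies left of 0.

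All 3 core factors fell in both lines, to different extents. Nanog (ENSMUSG00000012396, chr6:122657507-122664651 on NCBIm37), a homeobox factor that holds ES cells in self-renewal, had 6419 and 3651 normalised read counts in untreated WT cells and 914 and 506 in treated ones. In cells without Cfp1 it had 14050 and 13038 counts untreated and 2907 and 1635 treated. Every treated replicate lay below every untreated one, and the log2 fold change was -2.78 (SE 0.37, adjusted p = 0.000256) in WT and -2.53 (SE 0.36, adjusted p = 0.00041) in Cfp1-/- cells. Sox2 (ENSMUSG00000074637, chr3:34548927-34551383), the HMG-box partner of Pou5f1 on DNA, had 12059 and 8049 counts in untreated and 4380 and 2982 in treated WT cells. Without Cfp1 the counts of Sox2 were 10266 and 11133 untreated and 3658 and 2701 treated. Treated and untreated replicates of Sox2 did not overlap in either line, with a log2 fold change of -1.40 (SE 0.24, adjusted p = 0.00115) in WT and -1.71 (SE 0.24, adjusted p = 0.000413) in Cfp1-/- cells.

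Pou5f1 (ENSMUSG00000024406, chr17:35642982-35647721), which encodes the POU factor Oct4, changed least of the members that were called. Its counts were 16753 and 13807 in untreated and 12068 and 10734 in treated WT cells, and 9207 and 9918 in untreated and 7323 and 7043 in treated Cfp1-/- cells. Treated replicates were lower in each line without overlap, by log2 fold changes of -0.38 (SE 0.14, adjusted p = 0.0435) and -0.37 (SE 0.14, adjusted p = 0.0462). The calls were lost with scaling by total counts, at log2 fold changes of -0.062 and -0.16, and held in 1 of the 8 fits that left out a replicate in WT and in 4 of the 8 in Cfp1-/- cells. Of 48 stretches of 150 bases along its transcript 9 matched chromosome 1 equally well, so some of its reads may not have been counted.

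Among the 11 naive transcription factors 8 fell in WT cells and 7 in Cfp1-/- cells, and this class held the 2 members with the largest falls in WT cells. Prdm14 (ENSMUSG00000042414, chr1:13103538-13117244), a repressor of fibroblast growth factor signalling and of DNA methyltransferases, had 290 and 96.9 normalised read counts in untreated WT cells and 24.9 and 11.6 in treated ones. Among Cfp1-/- replicates it had 741 and 610 counts untreated and 55.1 and 30.8 treated. No treated replicate reached an untreated one, and the log2 fold changes were -3.39 (SE 0.58, adjusted p = 0.0011) in WT and -3.93 (SE 0.53, adjusted p = 0.000283) in Cfp1-/- cells. Zfp42 (ENSMUSG00000051176, chr8:44380422-44392363), the zinc finger gene also known as Rex1 and a common reporter of the naive state, had 15661 and 9967 counts in untreated and 1531 and 894 in treated WT cells. In Cfp1-/- cells Zfp42 had 5035 and 5077 counts untreated and 1297 and 701 treated. The groups did not overlap, at log2 fold changes of -3.36 (SE 0.35, adjusted p = 6.37e-05) in WT and -2.30 (SE 0.34, adjusted p = 0.000495) in Cfp1-/- cells.

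The nuclear receptors of the class fell together with these. Nr0b1 (ENSMUSG00000025056, chrX:83437103-83441286), the atypical receptor Dax1 that binds Pou5f1, had 3309 and 1390 counts in untreated and 435 and 191 in treated WT cells. Its Cfp1-/- counts were 2054 and 1748 untreated and 254 and 207 treated, of which the 254 lacks its second run. Treated replicates lay below untreated ones in both lines, with log2 fold changes of -2.87 (SE 0.44, adjusted p = 0.000606) and -3.00 (SE 0.45, adjusted p = 0.000506), and without the affected run Nr0b1 was still called in Cfp1-/- cells (adjusted p = 0.00173). Nr5a2 (ENSMUSG00000026398, chr1:138740161-138857004), a receptor that can stand in for Pou5f1 in reprogramming, had 1657 and 920 counts in untreated and 250 and 112 in treated WT cells. In cells without Cfp1 Nr5a2 had 3511 and 2824 counts untreated and 538 and 294 treated. It fell without overlap by log2 fold changes of -2.80 (SE 0.43, adjusted p = 0.000575) in WT and -2.89 (SE 0.41, adjusted p = 0.000415) in Cfp1-/- cells. Esrrb, the estrogen-related receptor that shares many targets with the core factors, fell by 1.48 (SE 0.49) on the log2 scale in WT and by 1.53 (SE 0.49) in Cfp1-/- cells, with adjusted p of 0.0312 and 0.0262.

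Of the 3 Krüppel-like factors, which bind GC-rich boxes and overlap in function, Klf2 and Klf4 fell and Klf5 was not called. Klf2 (ENSMUSG00000055148, chr8:74842932-74845555) had 551 and 569 normalised read counts in untreated and 164 and 153 in treated WT cells. Without Cfp1 Klf2 had 1090 and 887 counts untreated and 169 and 112 treated. The treated replicates of both lines lay in the same range while the untreated Cfp1-/- ones were higher, and the log2 fold changes were -1.78 (SE 0.23, adjusted p = 0.000194) in WT and -2.78 (SE 0.23, adjusted p = 2.04e-05) in Cfp1-/- cells. Klf4, a target of LIF and Stat3, fell from a mean of 2194 ± 1001 to 916 ± 462 counts (SD, n = 2) in WT cells, a log2 fold change of -1.22 (SE 0.42, adjusted p = 0.0349). Among Cfp1-/- replicates the log2 fold change of Klf4 was -1.21 (SE 0.41, adjusted p = 0.035). DESeq2 did not call Klf4 in either line (adjusted p = 0.0687 and 0.0726) nor Esrrb (adjusted p = 0.0601 and 0.0513), while in Cfp1-/- cells it called Gbx2 (adjusted p = 0.0275) and Tead4 (adjusted p = 0.016), which edgeR did not. Klf5 had log2 fold changes of -0.36 (SE 0.33) and -0.60 (SE 0.33).

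Tbx3, Tfcp2l1 and, in Cfp1-/- cells, Gbx2 were not called. Gbx2 (ENSMUSG00000034486, chr1:91824537-91829865), a homeobox target of LIF signalling, had 1120 and 645 counts in untreated and 207 and 174 in treated WT cells, a log2 fold change of -2.17 (SE 0.41, adjusted p = 0.00189). In Cfp1-/- cells Gbx2 had 361 and 161 counts untreated and 159 and 102 treated, so that the lower untreated replicate lay at the level of the higher treated one. Its log2 fold change there was -0.95 (SE 0.41, adjusted p = 0.0784). Tbx3 (ENSMUSG00000018604, chr5:120120678-120134733), a T-box factor downstream of LIF, had 818 and 210 counts in untreated and 377 and 73.9 in treated WT cells. In cells without Cfp1 Tbx3 had 7124 and 3548 counts untreated and 2731 and 1187 treated. The replicates of one group differed several-fold, and the log2 fold changes of -1.17 (SE 0.78) and -1.40 (SE 0.72) were not called. Tfcp2l1, a Stat3 target of the grainyhead family, had log2 fold changes of -0.63 (SE 0.50) and -0.84 (SE 0.50).

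Replicates with the same number deviated in the same direction across the groups, so a fit that blocked on the replicate number was run beside the unblocked one. In it 27 members were lower in WT cells, against 26.1% of the genes tested, and 29 in Cfp1-/- cells, against 25.9%. In WT cells the block added Tbx3 (adjusted p = 0.00216), Tfcp2l1 (adjusted p = 0.00433) and Tead4 (adjusted p = 0.0341). Without Cfp1 it added Klf5, Tbx3, Tfcp2l1, Gbx2, Tcl1 and Tead4, with adjusted p between 0.0002 and 0.0314 (edgeR).

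Of the 7 zinc finger and chromatin-linked factors 6 fell in each line, all but Zscan10. Sall1 (ENSMUSG00000031665, chr8:91551147-91568061), a spalt-like zinc finger repressor, had 4716 and 3707 normalised read counts in untreated and 984 and 461 in treated WT cells. Among Cfp1-/- replicates Sall1 had 2294 and 1680 counts untreated and 245 and 168 treated. Neither line showed overlap, and the log2 fold changes were -2.50 (SE 0.34, adjusted p = 0.000281) and -3.23 (SE 0.36, adjusted p = 9.1e-05). Its relative Sall4, which ES cells need for proliferation and which binds with Nanog, fell from 8440 ± 165 to 2802 ± 180 counts (SD, n = 2) in WT cells and from 10255 ± 1758 to 2275 ± 854 in Cfp1-/- cells. These are log2 fold changes of -1.54 (SE 0.23, adjusted p = 0.000546) and -2.13 (SE 0.24, adjusted p = 9.73e-05).

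The Dppa genes of this class fell less. Dppa3 (ENSMUSG00000046323, chr6:122576428-122580290), the maternal factor Stella that protects DNA methylation in the zygote, had 725 and 869 counts in untreated and 352 and 492 in treated WT cells. In Cfp1-/- cells Dppa3 had 2211 and 2316 counts untreated and 1634 and 1002 treated. The treated replicates were lower in both lines, at log2 fold changes of -0.87 (SE 0.24, adjusted p = 0.0154) and -0.74 (SE 0.24, adjusted p = 0.0273). Dppa2 and Dppa4, SAP-domain proteins that act as a pair on chromatin, had log2 fold changes of -1.05 (SE 0.26) and -0.96 (SE 0.16) in WT cells and of -0.73 (SE 0.25) and -0.78 (SE 0.15) in Cfp1-/- cells, all called. Dppa2 had 29.2% and Dppa4 17.9% of its transcript placed equally well elsewhere in the genome, so their counts are less certain. Utf1, a chromatin-bound factor limited to pluripotent cells, fell by 0.69 (SE 0.25, adjusted p = 0.0461) in WT and by 1.04 (SE 0.25, adjusted p = 0.00672) in Cfp1-/- cells on the log2 scale, and held in 2 of the 8 fits that left out a replicate in the former. Zscan10, a SCAN-domain zinc finger factor, had 2645 ± 404 counts untreated and 2548 ± 873 treated in WT cells (SD, n = 2), and its log2 fold changes were -0.01 (95% interval -0.52 to 0.51) and -0.14 (95% interval -0.65 to 0.38).

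Of the 5 ES cell markers and RNA-binding proteins 3 fell in each line. Fbxo15, an F-box gene of undifferentiated ES cells, fell by 2.31 (SE 0.26, adjusted p = 0.000103) on the log2 scale in WT cells, from 5898 ± 1766 to 1155 ± 153 counts (SD, n = 2). In cells without Cfp1 it fell by 1.66 (SE 0.26, adjusted p = 0.000626). Lin28b (ENSMUSG00000063804, chr10:45096426-45206201), which with Lin28a blocks the maturation of let-7 microRNAs, had 2487 and 3649 counts in untreated and 1208 and 1448 in treated WT cells. Without Cfp1 Lin28b had 1282 and 1727 counts untreated and 783 and 736 treated. The groups stood apart in both lines, with log2 fold changes of -1.16 (SE 0.21, adjusted p = 0.00145) and -0.94 (SE 0.21, adjusted p = 0.00472). Lin28a fell by 1.25 (SE 0.19, adjusted p = 0.000533) and by 0.97 (SE 0.19, adjusted p = 0.00223).

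Dppa5a and Tcl1 were not called in either line. Dppa5a, a small KH-domain RNA-binding protein and the member with most counts per kilobase in all groups but untreated Cfp1-/- cells, where Trim28 exceeded it, had log2 fold changes of -0.06 (95% interval -0.58 to 0.46) in WT and -0.12 (95% interval -0.64 to 0.40) in Cfp1-/- cells. Tcl1, a coactivator of the kinase Akt, had log2 fold changes of -0.56 (95% interval -1.62 to 0.51) and -0.80 (95% interval -1.87 to 0.28). The intervals of Dppa5a and of Zscan10 leave out a fall by the median of the members, and those of Tcl1 do not. With scaling by total counts the values of Dppa5a and Zscan10 were above 0 in both lines, at 0.26 and 0.090 for Dppa5a and 0.31 and 0.077 for Zscan10. For Dppa5a, 5 of 19 stretches of 150 bases matched another place in the genome equally well, so its count is uncertain.

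Of the 5 broadly expressed regulators Rif1, Trim28, Mybl2 and Rest fell in both lines. Rif1, a regulator of replication timing and telomeres with high levels in ES cells, had the largest of these changes in WT cells, from 55235 ± 4673 to 17124 ± 1965 counts (SD, n = 2) and a log2 fold change of -1.64 (SE 0.17, adjusted p = 5.38e-05). Among Cfp1-/- replicates it was -1.18 (SE 0.17, adjusted p = 0.000366). Rest (ENSMUSG00000029249, chr5:77694516-77715457), the repressor of neuronal genes, had 30893 and 26290 counts in untreated and 12422 and 11425 in treated WT cells. In Cfp1-/- cells Rest had 15989 and 15482 counts untreated and 8806 and 7049 treated. No replicates of treated and untreated cells overlapped within a line, and the log2 fold changes were -1.22 (SE 0.15, adjusted p = 0.000166) and -0.95 (SE 0.15, adjusted p = 0.000719). Trim28, the corepressor of KRAB zinc finger proteins, fell by 1.12 (SE 0.13) and 1.02 (SE 0.13) on the log2 scale, and Mybl2, a Myb factor of the cell cycle, by 1.35 (SE 0.28) and 1.17 (SE 0.28). Tead4, the Hippo pathway factor of trophectoderm, was the lowest of this class, with 134 ± 40.9 counts (SD, n = 2) in untreated WT cells, and had log2 fold changes of -0.71 (SE 0.62) and -1.46 (SE 0.59) that were not called.

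Scaling bears on these numbers. With total counts in place of TMM the median over all genes moved by 0.31 on the log2 scale in the WT response, 0.21 in the Cfp1-/- response, 0.19 and 0.09 in the genotype comparisons of untreated and treated cells and -0.10 in the response difference. The members lay below the median of all genes by 1.28 in WT and by 1.19 in Cfp1-/- cells under both scalings. A change of scaling moves all genes of a comparison by nearly the same amount, so this distance could hardly differ. The calls did differ. With total counts 19 members were called lower in each line, where 1836 genes of 15758 were in WT and 2057 in Cfp1-/- cells. Pou5f1, Klf4, Esrrb, Utf1 and Dppa3 lost their calls in WT cells, and Pou5f1, Klf4, Dppa2 and Dppa3 in Cfp1-/- cells.

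The question whether Cfp1 alters the response was addressed by the difference between the responses, in which no member passed the test. Of the 31 members 0 were called higher and 0 lower in edgeR, where 0.114% and 0.121% of the genes tested were. At an unadjusted p under 0.05 there were 2 members, and 7 with the replicate block, which called 0. DESeq2 called 0 as well, with 3 members at an unadjusted p under 0.05, and the smallest adjusted p in edgeR was 0.297. No share of all genes at an unadjusted p under 0.05 is given, so those counts have no background beside them. The log2 differences ranged from -1.0 to 1.22, positive where the gene fell less in Cfp1-/- cells. The 95% interval lay within a log2 difference of 1 either way for 10 of the 31 members and reached beyond it for the other 21, with a median half-width of 0.80.

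Klf2, Zfp42 and Gbx2, picked after their values were seen because they had the lowest adjusted p with the replicate block, differed most. Klf2 had the larger fall in Cfp1-/- cells, by a log2 difference of -1.0 (SE 0.31, adjusted p = 0.297), and the treated counts given above lay together while the untreated ones were apart. Zfp42 fell less in Cfp1-/- cells, with a log2 difference of 1.06 (SE 0.46, adjusted p = 0.455). Gbx2 too fell less, with a log2 difference of 1.22 (SE 0.57, adjusted p = 0.493). With the block their adjusted p was 0.0868, 0.0804 and 0.0757, and when the affected run was dropped from the blocked fit Klf2 was called (log2 difference -1.12, adjusted p = 0.0345), as were 1.27% of the genes tested in that direction. For the core factors the log2 differences were 0.01 (95% interval -0.42 to 0.44) for Pou5f1, -0.30 (95% interval -1.06 to 0.45) for Sox2 and 0.25 (95% interval -0.84 to 1.35) for Nanog.

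Between untreated Cfp1-/- and WT cells members were called in both directions, as were genes at large. Of the 31 members 7 were higher in Cfp1-/- cells and 8 lower, against 17.9% and 16.1% of the genes tested. The median log2 fold change was -0.13 over the members and 0.01 over all genes, and that of the members was 0.34 without replicate 1 of untreated WT cells, 0.068 without replicate 2 of untreated Cfp1-/- cells and -0.24 without replicate 1 of the latter. Both Cfp1-/- replicates lay below both WT ones in 11 members and above in 12, as they did in 35.7% and 34.2% of the genes tested, and 8 members overlapped. With the replicate block the counts were 11 higher and 10 lower, against 22.3% and 21.3% of the genes, and with scaling by total counts 11 higher and 6 lower, against 24.4% and 10.2%. Of the 15 calls 3, those of Gbx2, Dppa3 and Rest, held in all 8 fits that left out a replicate. These comparisons share samples with the responses above and are not independent of them.

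**Figure D3:**
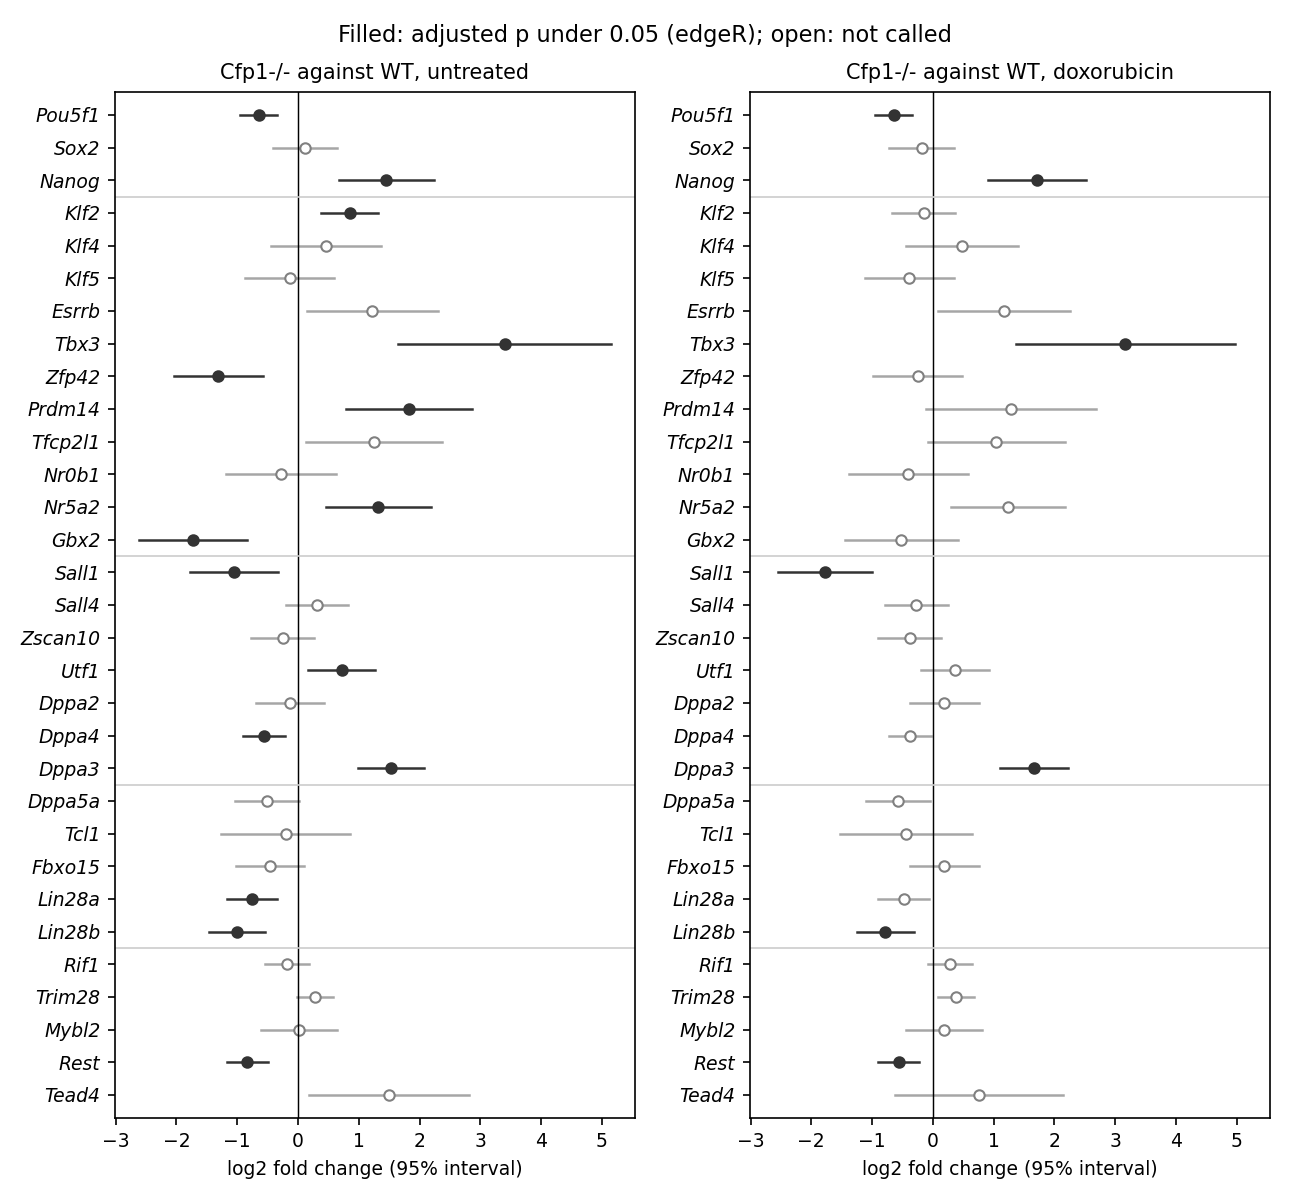
Log2 fold change of each member in Cfp1-/- against WT cells, untreated and under doxorubicin, with 95% intervals (edgeR) and filled points where the adjusted p was under 0.05. In untreated cells 7 filled points lie right of 0 and 8 left of it, and under doxorubicin 3 and 4, with Tbx3 furthest to the right in both.

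The members higher in untreated Cfp1-/- cells were Nanog, Klf2, Tbx3, Prdm14, Nr5a2, Utf1 and Dppa3. Tbx3 differed most, with the counts of 818 and 210 in WT against 7124 and 3548 in Cfp1-/- cells given above. Both Cfp1-/- replicates exceeded both WT ones by far, and the log2 fold change was 3.40 (SE 0.78, adjusted p = 0.00923). Prdm14 was higher by 1.82 (SE 0.46, adjusted p = 0.0141), Dppa3 by 1.53 (SE 0.24, adjusted p = 0.00159) and Nanog by 1.46 (SE 0.35, adjusted p = 0.0109) on the log2 scale. Nr5a2 followed with 1.32 (SE 0.39, adjusted p = 0.0257), Klf2 with 0.85 (SE 0.21, adjusted p = 0.0132) and Utf1 with 0.72 (SE 0.25, adjusted p = 0.0464). Utf1 lies on chromosome 7, whose 1283 genes tested had a median log2 fold change of 0.53 in this comparison, and the part of the chromosome in its value was not tested. DESeq2 did not call Nr5a2 (adjusted p = 0.0685) and called Tead4 (adjusted p = 0.0246). With the block Esrrb, Tfcp2l1, Klf4 and Tead4 were higher too, at log2 fold changes of 1.34, 1.36, 0.50 and 1.37.

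The members lower in untreated Cfp1-/- cells were Pou5f1, Zfp42, Gbx2, Sall1, Dppa4, Lin28a, Lin28b and Rest. Gbx2 had the largest change, a log2 fold change of -1.73 (SE 0.40, adjusted p = 0.00893) from 1120 and 645 counts in WT to 361 and 161 in Cfp1-/- cells. Zfp42 stood at -1.31 (SE 0.33, adjusted p = 0.0129) and Sall1 at -1.05 (SE 0.32, adjusted p = 0.0299). Zfp42, Sall1 and Klf2 lie on chromosome 8, where the 823 genes tested had a median log2 fold change of -0.23, and relative to that median Sall1 stood at -0.83. Rest, at -0.83 (SE 0.15, adjusted p = 0.00291), and Pou5f1, at -0.65 (SE 0.14, adjusted p = 0.00606), were lower without overlap. Lin28a and Lin28b had log2 fold changes of -0.76 (SE 0.19, adjusted p = 0.0123) and -1.0 (SE 0.21, adjusted p = 0.00568), and Dppa4 of -0.56 (SE 0.15, adjusted p = 0.0202). Sox2 did not pass the test, at 0.12 (95% interval -0.41 to 0.65), nor did Nr0b1, at -0.28 (SE 0.40). With the block Dppa5a (log2 fold change -0.47) and Fbxo15 (-0.42) were lower as well.

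By class, 4 of the 11 naive transcription factors were higher and 2 lower, and of the 5 ES cell markers and RNA-binding proteins 0 were higher and 2 lower. Over all genes tested 17.9% were higher and 16.1% lower. The classes are small, and a difference between them was not tested. The promoter windows of the members higher in Cfp1-/- cells, 6 windows of 4 members, held 2 to 32 CG dinucleotides, and those of the members lower, 9 windows of 6 members, held 6 to 39. The ranges overlapped.

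Under doxorubicin 3 members were higher in Cfp1-/- than in WT cells and 4 lower, against 15.1% and 10.8% of the genes tested. Those higher were Tbx3, with a log2 fold change of 3.17 (SE 0.80, adjusted p = 0.0188), Nanog with 1.71 (SE 0.36, adjusted p = 0.00876) and Dppa3 with 1.66 (SE 0.25, adjusted p = 0.00192). Those lower were Sall1 at -1.78 (SE 0.35, adjusted p = 0.00637), Lin28b at -0.78 (SE 0.21, adjusted p = 0.0237), Pou5f1 at -0.64 (SE 0.14, adjusted p = 0.00914) and Rest at -0.56 (SE 0.15, adjusted p = 0.0225). All 7 were also called in untreated cells, in the same direction. Zfp42 and Klf2 had log2 fold changes of -0.25 (SE 0.33) and -0.15 (SE 0.23) and did not pass the test, nor did Sox2 at -0.18 (SE 0.24) or Nr0b1 at -0.41 (SE 0.44). On X, where Nr0b1 lies and where the affected run lost counts, the median of the genes tested was -0.24 in this comparison and 0.03 in untreated cells. Of the 31 members 16 overlapped between the genotypes here, 8 lay lower in both Cfp1-/- replicates and 7 higher, against 31.9% and 33.1% of the genes tested.

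With the replicate block 9 members were higher and 7 lower in this comparison, against 20.5% and 16.2% of the genes tested. The block added Klf4, Esrrb, Prdm14, Tfcp2l1, Nr5a2 and Trim28 to those higher, with log2 fold changes between 0.38 and 1.28, and Dppa4, Dppa5a and Lin28a to those lower, with values between -0.56 and -0.38. Trim28, at 0.38, lies on chromosome 7, whose genes tested had a median of 0.47 in this comparison. In the unblocked fit the median log2 fold change of the members was -0.15. It was 0.13 without replicate 2 of treated Cfp1-/- cells and -0.20 without replicate 2 of treated WT cells. Of the calls of the unblocked fit that of Dppa3 alone held in all 8 fits that left out a replicate.

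The block bears on the network because its members varied together between replicates. In 21 of the 31 members the replicate numbered 1 had the higher normalised read count in all 4 groups, 67.7% of them, where 14.0% of the genes tested did. The opposite order in all 4 groups was found for 1 member, Lin28a, and for 13.5% of the genes tested. The median log2 ratio of replicate 1 over replicate 2 was 0.47 in untreated and 0.63 in treated WT cells and 0.27 in untreated and 0.59 in treated Cfp1-/- cells over the members, and between -0.01 and 0.00 over all genes. Tbx3 varied most, with log2 ratios between 1.01 and 2.34, and Tead4, Tfcp2l1, Esrrb and Prdm14 followed with medians of 1.23, 1.04, 0.96 and 0.93. Pou5f1 and Trim28 had medians of 0.11 and 0.04. Lin28b had the higher count in replicate 2 in 3 of the 4 groups. What the numbers stand for is stated neither in the labels nor in the methods.

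**Figure D4:**
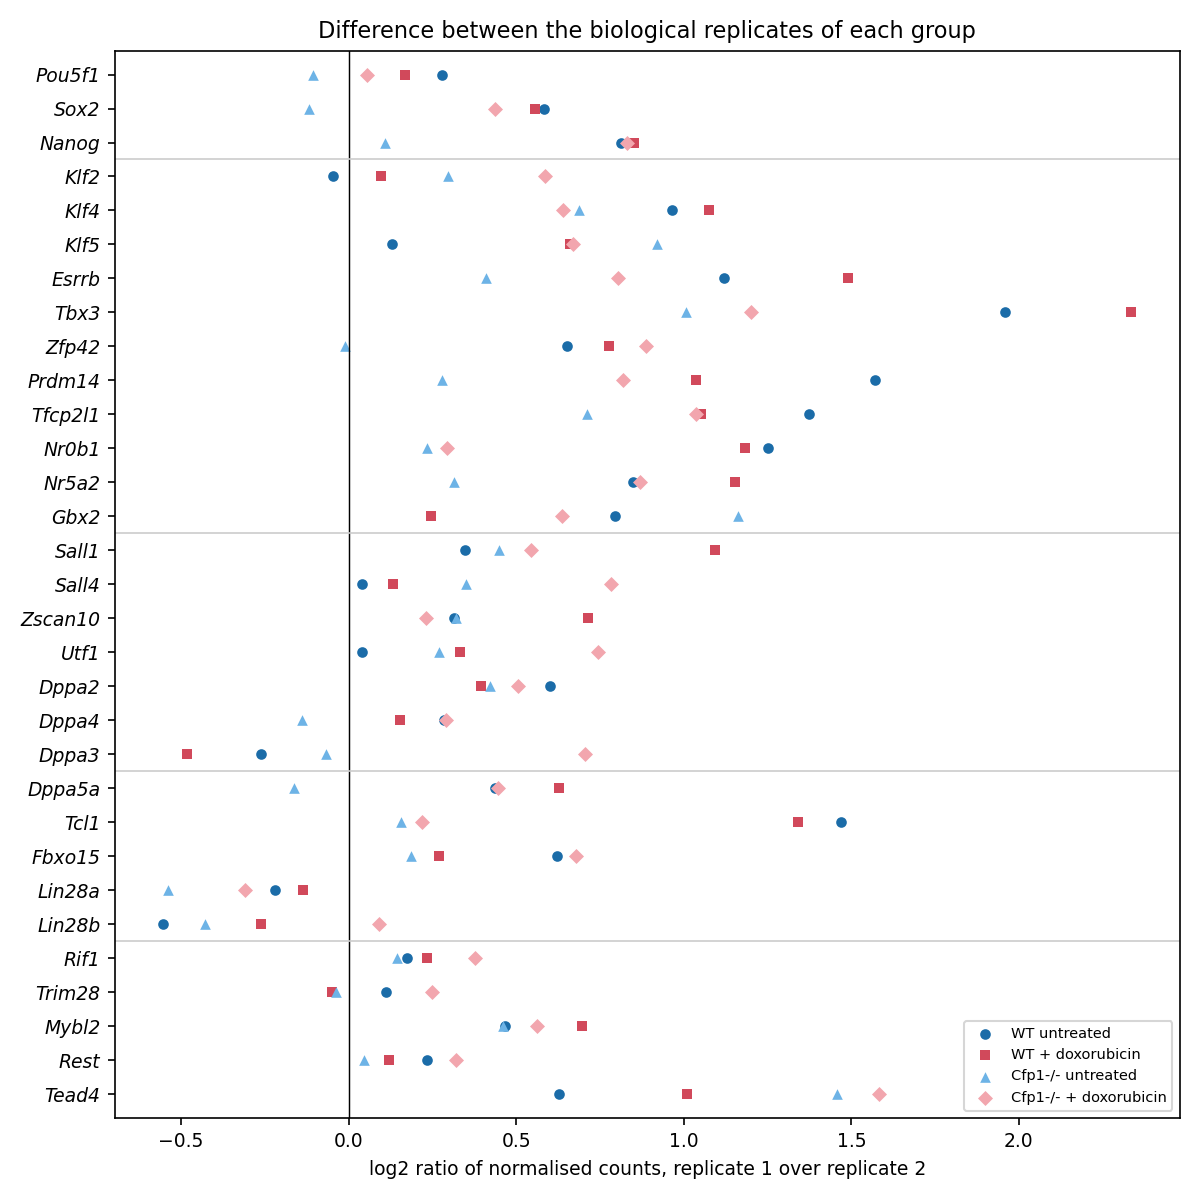
Log2 ratio of the normalised read count in replicate 1 over that in replicate 2 for each member, with 1 point for each of the 4 groups. Most points lie right of 0, furthest for Tbx3 at 1.01 to 2.34, while all 4 points of Lin28a lie left of 0.

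A list of 30 further pluripotency genes was read beside the network. In WT cells 24 of the 30 were lower and 1 higher with doxorubicin, against 21.8% and 26.5% of the genes tested. The Cfp1-/- cells had 22 lower and 1 higher, against 21.0% and 27.8%, with median log2 fold changes of -1.28 and -1.08. The largest falls were those of Foxd3, a forkhead factor, at -3.89 and -4.32, and of Eras, an ES cell Ras protein, at -3.20 and -4.07. Nodal, the growth factor, rose in both lines, at 1.57 and 1.61. Untreated Cfp1-/- cells had 3 of the 30 higher, Fgf4 and Pecam1 with a log2 fold change of 1.71 each among them, against 17.9% of the genes tested, and 5 lower, against 16.1%, led by Lefty1 at -2.40 and Mycn at -1.22.

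Marker lists of other states and cell types were read in the same libraries. Of 6 formative and primed epiblast markers 5 were lower under doxorubicin in WT cells and 4 in Cfp1-/- cells, against 21.8% and 21.0% of the genes tested. None was higher, and Fgf5 and Zic2 led the falls in WT cells at -3.96 and -3.95. Their summed normalised read counts were 17167 and 28106 in untreated WT, 4502 and 8724 in treated WT, 10972 and 14434 in untreated Cfp1-/- and 5243 and 4790 in treated Cfp1-/- replicates. Replicate 1 thus had the lower sum in 3 of the 4 groups. Dnmt3b made up most of these sums, with 13067 and 22781 counts in untreated WT replicates, so they say little of the other markers. In untreated WT cells Fgf5 and Lef1 too were lower in replicate 1, while Otx2 (1597 and 1532) and Zic2 (647 and 629) were higher. Between the untreated genotypes 1 of these 6 markers was higher in Cfp1-/- cells and 3 were lower, against 17.9% and 16.1% of the genes tested. Their median log2 fold change was -0.85. Pou3f1, which went against most of the list, had 0 counts in all 4 WT replicates and 84.4 to 262 normalised read counts in the 4 Cfp1-/- ones.

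For trophectoderm the summed counts of 6 markers were 1919 to 4434 in untreated and 1411 to 3649 in treated WT replicates, and 419 to 671 and 327 to 453 in the Cfp1-/- ones, with Krt8 (-3.39) and Krt18 (-2.28) lower and Elf5 (5.14) higher in untreated Cfp1-/- cells. The size of the Elf5 value is uncertain, since its raw counts were 1 and 0 in untreated WT and 34 and 11 in untreated Cfp1-/- replicates. The 7 primitive endoderm markers summed to 197 to 263 and 365 to 377 counts in WT and to 365 to 538 and 568 to 686 in Cfp1-/- replicates, with Pdgfra higher with doxorubicin in WT cells (3.02). Markers of the 2-cell-like state, 3 Zscan4 genes, summed to 17.0 to 18.8 and 34.1 to 62.3 counts in WT and to 195 to 213 and 341 to 357 in Cfp1-/- replicates. All 3 were higher in untreated Cfp1-/- cells, where 17.9% of the genes tested were, Zscan4d most (3.74). Their raw counts lay between 5 and 9 in untreated WT replicates, so the sizes of these values are uncertain. Matches elsewhere in the genome were checked for the members and not for these genes. Fibroblast feeder markers summed to 222 to 237 and 359 to 512 counts in WT and to 71.4 to 74.4 and 289 to 347 in Cfp1-/- replicates, with Lum at or under 3 counts throughout. Of the 6 primitive endoderm, 3 2-cell-like and 5 feeder markers tested 0 were lower with doxorubicin in either line. The share of all genes tested was 21.8% in WT and 21.0% in Cfp1-/- cells. Higher with it were 1, 3 and 2 of these markers in WT and 3, 1 and 2 in Cfp1-/- cells, against 26.5% and 27.8% of the genes tested. The lists are short, and a difference from these shares was not tested. In Cfp1-/- cells Sox17 (2.17) and Col1a1 (4.66) rose most. Their raw counts were 7 and 2 and 14 and 6 in untreated Cfp1-/- replicates, so the sizes of these values are uncertain. Of the 5 trophectoderm markers tested 1 was higher with doxorubicin in WT cells, Hand1 (3.21), and Krt18 alone was lower, in Cfp1-/- cells (-1.14). Hand1 had raw counts of 7 and 8 in untreated WT replicates, so the size of its value is uncertain. Of the 5 feeder markers tested 3 were lower in untreated Cfp1-/- cells, against 16.1% of the genes tested, Col3a1 most (-6.54). The raw counts of Col3a1 were 73 and 43 in untreated WT and 0 and 1 in untreated Cfp1-/- replicates, so the size of its value is uncertain too. Mesoderm markers summed to 160 to 575 and neural markers to 1851 to 4689 counts over all 8 replicates. With doxorubicin in WT cells 2 of 5 mesoderm markers were higher and 2 lower, and 1 of the 4 neural markers tested was lower. Of all genes tested 26.5% were higher and 21.8% lower there. The part of these cells in the members' values was not tested.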

How the data were processed

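The deposited table of raw counts holds whole reads per gene and technical replicate, made by the authors from ribosomal RNA-depleted, strand-specific libraries aligned with STAR (version 2.2.1 in the submitters' processing notes) to NCBIm37 and counted with HTSeq on exons of Ensembl genes. The deposited normalised counts, a signal per biological replicate, equal the summed counts over a DESeq size factor. Counting left out reads with several placements. Stretches of 150 bases of each member's transcript, taken every 25 bases, were placed on the genome with minimap2, and Pou5f1, Dppa2, Dppa4, Dppa5a and Mybl2 had over 10% placed equally well elsewhere.

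Technical replicates were summed and fitted with edgeR 4.0.16 in R 4.3.3 (filterByExpr, TMM, 1 coefficient per group, quasi-likelihood test, Benjamini-Hochberg adjustment), with a common dispersion of 0.0304, and DESeq2 1.42.0 as an alternative. The scripts were tested on simulated data. Total counts were 14880589 to 29422711 per biological replicate, and the floor was set at 3 counts. Technical replicates agreed within sampling noise in 6 of 8 pairs (chi-square per degree of freedom 0.998 to 1.05). The 2 exceptions were first replicates of treated cells, WT at 9.61 and Cfp1-/- at 42.9. Nothing states that biological replicates were separate cultures, so p-values measure the spread between these samples.

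The members, classes and marker lists were chosen with earlier results of these data known. Values in every replicate are given for the core factors, the 5 called members with the largest change in each direction and comparison, and members on chromosome 8 or X. Of other lists, up to 2 called genes per direction are named. The main fit left the replicate numbers out, so its calls and standard errors are unpaired. The numbers served as a block in an alternative fit because same-numbered deviations correlated at 0.178 to 0.600 over 11002 genes in all 6 pairs of groups. These correlations come from the same counts, and the labels do not say what the numbers share. The alternatives were other scalings, DESeq2, no filter, the replicate block, the affected run left out, first technical replicates alone, fits of 2 groups, and each replicate left out.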

Additional observations from a re-analysis of the deposited data

Results flagged for a closer look

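Among all genes of the lists examined, the response to doxorubicin differed between the lines by the test of the difference itself for 1, Mycn of the further pluripotency genes. Mycn, a Myc family factor of ES cells, had 4728 and 5754 normalised read counts in untreated and 924 and 1204 in treated WT cells. In Cfp1-/- cells it had 1856 and 2551 counts untreated and 133 and 131 treated. Treated replicates were lower in both lines, and the log2 difference between the responses was -1.76 (SE 0.28, edgeR adjusted p = 0.0489), a larger fall in Cfp1-/- cells. With the replicate block the adjusted p was 0.0028 and over all alternatives it ranged from 1.39e-05 to 0.248. Mycn was called in 0 of the 8 fits that left out a replicate, in which the log2 difference stayed between -1.99 and -1.53.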

How the results depend on the processing

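For single members 1701 values were recomputed for 119 results, not under first technical replicates alone or fits of 2 groups, which were run for the counts and medians: 1500 kept their direction and their side of the threshold, 91 kept the direction but were no longer called, 75 became called, 33 changed sign, and 2 moved. The 2 that moved were values less the chromosome 8 median, for Sall1 in untreated cells and Zfp42 under doxorubicin. No called member changed sign in these values. With the replicate block the members called between the genotypes under doxorubicin rose from 7 to 16, to 20 when the affected run was dropped as well, and without a filter to 12. The genes called higher and lower rose too, from 2374 and 1700 of 15758 to 3237 and 2558 with the block. They numbered 3372 and 2755 of 15762 without the affected run as well, and 2517 and 1885 of 19766 without a filter. The response difference gained 1 member, Klf2, in the blocked fit that dropped the affected run. Of the counts by direction it also moved members higher between the untreated genotypes, from 7 to 11, and the members at an unadjusted p under 0.05 in the response difference, from 2 to 7. Leaving out each replicate gave 4 to 16 members called between the untreated genotypes and 3 to 8 under doxorubicin. With total count scaling the median log2 fold change of the members was -0.90 in WT cells, -0.96 in Cfp1-/- cells, -0.15 for the response difference and -0.063 between the treated genotypes, and that between the untreated genotypes went from -0.13 to 0.054 (-0.045 with the block). Leaving out each replicate, it ranged from -0.24 to 0.34 between the untreated and from -0.35 to 0.32 between the treated genotypes, and from -0.43 to 0.28 for the response difference.

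Sign changes occurred in members that were not called. With total count scaling Zscan10 stood at 0.31 (WT response) and 0.077 (Cfp1-/- response), Dppa5a at 0.26 and 0.090, and between the untreated genotypes Klf5 at 0.049, Dppa2 at 0.054 and Rif1 at 0.012. Mybl2 there was -0.014 with DESeq2 size factors and -0.015 in DESeq2. Leaving out each replicate gave these ranges. In the WT response they were -2.76 to 0.13 for Tbx3, -1.26 to 0.21 for Tfcp2l1, -0.41 to 0.30 for Zscan10, -0.41 to 0.22 for Dppa5a and -1.38 to 0.36 for Tcl1. In the Cfp1-/- response they were -0.30 to 0.023 for Zscan10 and -0.38 to 0.091 for Dppa5a. Between the untreated genotypes they were -0.15 to 0.45 for Sox2, -0.65 to 0.26 for Klf5, -0.78 to 0.49 for Nr0b1, -0.41 to 0.21 for Dppa2, -0.76 to 0.73 for Tcl1 and -0.22 to 0.28 for Mybl2. Under doxorubicin they were -0.44 to 0.11 for Sox2, -0.49 to 0.12 for Klf2, -0.78 to 0.18 for Zfp42, -0.89 to 0.29 for Nr0b1 and -0.071 to 0.70 for Utf1, and the range crossed 0 for 7 further members that were not recomputed singly there. In the response difference it crossed 0 for 20 of the 31. The causes were not tested, and a fit without a replicate assumes that the lone sample of its group varies like the others. Depth limits Prdm14 most, with 11 to 799 counts, while every other member had at least 50 in each replicate.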
